A study of Mus musculus with 6 samples.

Results

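The acyl-CoA synthetases described here are 10 genes of mouse liver: 5 of the long-chain family (*Acsl1*, *Acsl3*, *Acsl4*, *Acsl5* and *Acsl6*), 3 of the medium-chain family (*Acsm1*, *Acsm3* and *Acsm5*) and 2 of the short-chain family (*Acss2* and *Acss3*). They were chosen by gene symbol and are 10 of the 54446 genes listed in the data. RNA-seq was performed on the liver of 3 wild-type (WT) C57BL/6J mice and 3 Fmo5-/- mice, in which the gene of the flavin-containing monooxygenase FMO5 is disrupted, on the same background. The mice were male, were kept on standard chow without treatment and were 32 weeks of age. The Fmo5-/- mice are 1 line, and the disruption is not limited to the liver.

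Acyl-CoA synthetases join a fatty acid to coenzyme A at the cost of ATP. A free fatty acid has to be activated in this way before it can be oxidized, elongated or built into triacylglycerols, phospholipids and cholesteryl esters. The families differ in the length of the chain they prefer and in the membrane or compartment in which they work, so the liver keeps several of them.

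In the livers of Fmo5-/- mice, the normalized counts (read counts scaled to a common library size) of *Acss3*, *Acsm3* and *Acsl1* were lower than in every WT mouse, by 55.0%, 32.2% and 29.3% in the fitted fold change, so that 1 gene of each family was lower. The other 7 members differed by between 23.2% lower (*Acsl3*) and 13.8% higher (*Acss2*), within the spread between mice or close to it. With 3 mice per genotype, 0 of the 10 members passed an adjusted p of 0.05 by edgeR's quasi-likelihood test (Benjamini-Hochberg adjustment over all tested genes), where 1.37% of 16734 tested genes passed. At an unadjusted p under 0.05 by the same test, *Acsl1*, *Acsm3* and *Acss3* were lower, or 3 of 10 members against 10.2% of the tested genes. DESeq2 placed the same 3 members, and no other, under an adjusted p of 0.05, against 4.21% of its 15571 tested genes that were called lower.

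**Figure D1:**
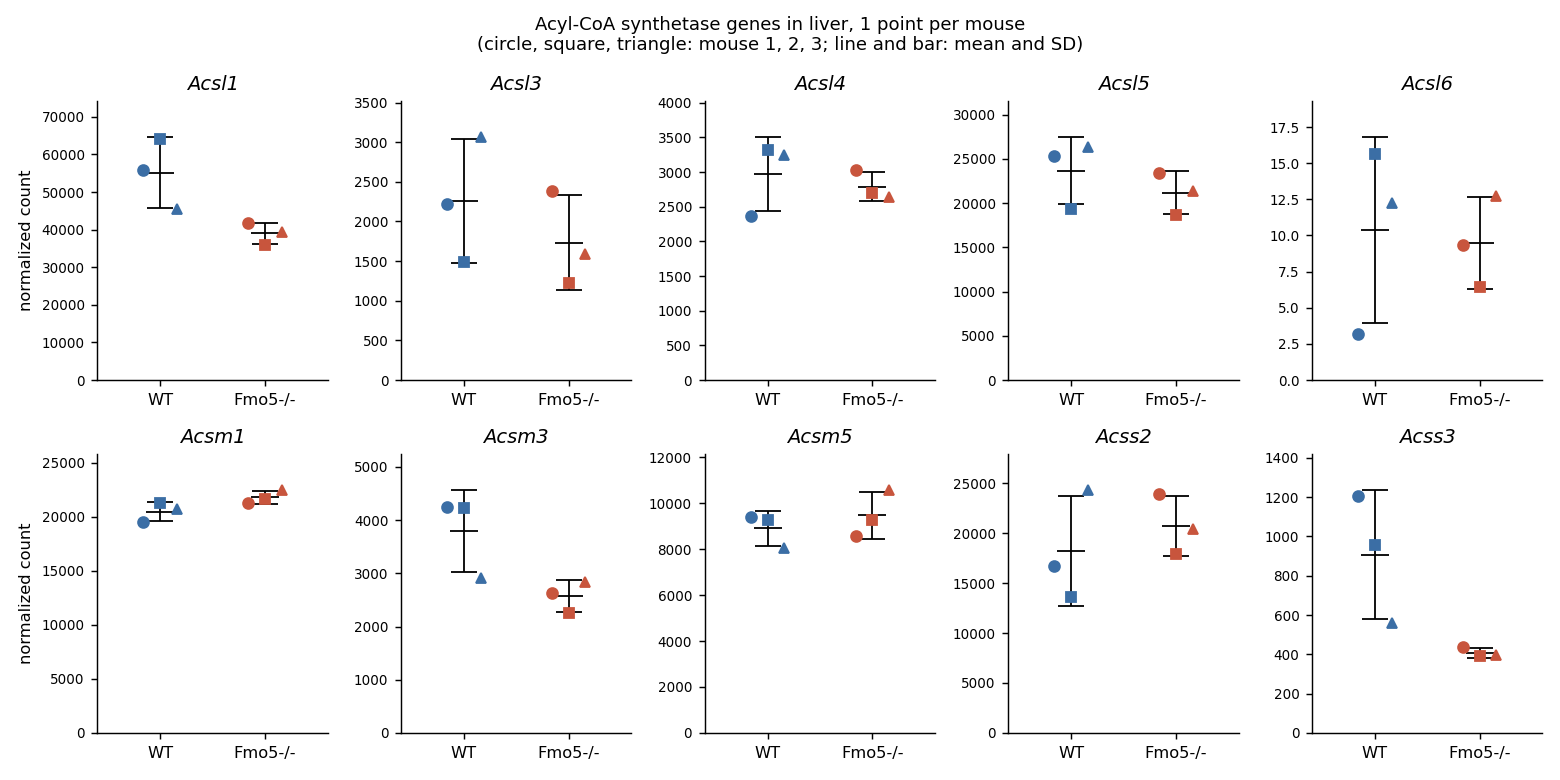
Normalized count (linear axis from 0) of each of the 10 acyl-CoA synthetase genes in each mouse, with the mean and SD of each genotype (n = 3). The Fmo5-/- mice lie below all WT mice for *Acsl1*, *Acsm3* and *Acss3*, and WT mouse 3 (blue triangle) is the lowest WT mouse for each of these.

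The position of the members in the genome is given on mm10 from GENCODE M21. The long-chain genes lie on separate chromosomes, with *Acsl1* at chr8:46471037-46536051, *Acsl3* at chr1:78657825-78707743, *Acsl5* at chr19:55251938-55297720 and *Acsl6* at chr11:54303798-54364756, all on the plus strand, and *Acsl4* at chrX:142317993-142390535 on the minus strand. The medium-chain genes form a cluster on the plus strand of chromosome 7, in the order *Acsm5* (chr7:119519463-119545551), *Acsm1* (chr7:119607026-119662515) and *Acsm3* (chr7:119760923-119787513). A gap of 61474 bases with *Acsm2* separates the first 2 genes, and a gap of 98407 bases with *Acsm4* and *Thumpd1* separates *Acsm1* from *Acsm3*. *Acss2* lies at chr2:155517948-155585724 on the plus strand and *Acss3* at chr10:106933517-107123668 on the minus strand. The proteins that the principal transcripts encode range from 573 amino acids for *Acsm1* to 722 for *Acsl6*.

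RefSeq promoters on GRCm38.p6, the same build as mm10, were found for 9 members, all but *Acss3*. The bases upstream of the RefSeq start sites are shown for *Acsl1* and *Acsm3*, which were lower in every Fmo5-/- mouse, and for *Acsm1*, the neighbour of *Acsm3* that was not. All are from the plus strand, and annotated exon bases were left out. Capitals mark the motifs that were searched.
*Acsl1*, first start site, chr8:46470787-46471036: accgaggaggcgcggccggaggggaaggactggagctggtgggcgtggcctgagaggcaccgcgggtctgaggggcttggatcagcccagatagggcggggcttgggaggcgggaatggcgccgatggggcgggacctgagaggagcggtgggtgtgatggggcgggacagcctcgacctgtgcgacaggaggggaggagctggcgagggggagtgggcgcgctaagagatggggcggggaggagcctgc
*Acsl1*, second start site, chr8:46490716-46490965: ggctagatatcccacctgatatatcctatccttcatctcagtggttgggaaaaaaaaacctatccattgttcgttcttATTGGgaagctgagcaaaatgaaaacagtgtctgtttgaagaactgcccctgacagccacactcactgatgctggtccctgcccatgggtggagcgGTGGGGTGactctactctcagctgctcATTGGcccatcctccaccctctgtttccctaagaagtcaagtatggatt
*Acsm3*, chr7:119760673-119760922: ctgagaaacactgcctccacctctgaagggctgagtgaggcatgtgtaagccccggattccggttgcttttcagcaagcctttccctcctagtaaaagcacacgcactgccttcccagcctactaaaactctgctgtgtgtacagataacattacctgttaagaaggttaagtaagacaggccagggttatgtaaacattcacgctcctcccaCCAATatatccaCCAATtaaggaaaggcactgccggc
*Acsm1*, chr7:119617562-119617780: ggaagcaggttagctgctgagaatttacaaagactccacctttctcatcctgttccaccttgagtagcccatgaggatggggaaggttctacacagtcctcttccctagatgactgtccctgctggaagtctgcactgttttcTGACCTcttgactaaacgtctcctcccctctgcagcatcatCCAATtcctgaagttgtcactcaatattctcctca

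The 2 start sites of *Acsl1* have unlike sequences. The first is the annotated start of the gene, in a 300-base promoter of 74.0% G and C with 30 CpG dinucleotides, and none of the 6 motifs was found in it. The second lies within the annotated gene, in a promoter of 50% G and C with 4 CpG dinucleotides. It holds the sterol response element core CACCCCAC on the minus strand, 76 bases before the start site, and the CCAAT box on the minus strand at 172 and 49 bases before it. The core of the sterol response element was in 2.87% of the 32851 RefSeq promoters of 300 bases, and CCAAT on either strand was in 37.4%. The *Acsm3* promoter holds 2 CCAAT boxes, 37 and 25 bases before the start site. Promoters of *Acsl3*, *Acsl5*, *Acsl6*, *Acsm5* and *Acss2* also hold CCAAT. The RefSeq start of *Acsm1*, at 119617812, lies within the annotated gene, which begins at 119607026, and that of *Acsm5* lies within its gene too. The *Acsm1* promoter holds 1 CCAAT box, 66 bases before that RefSeq start. It also holds the nuclear receptor half-site AGGTCA on the minus strand, 107 bases before the start, a half-site that 16.3% of promoters hold. The half-site was also found on the minus strand of a promoter of *Acsl6*, 189 and 167 bases before the start. The antioxidant response element TGACNNNGC, present in 12.4% of promoters, was found 107 bases before the start of *Acss2* and 17 bases before a start of *Acsl6*. The E-box CACGTG, in 7.15% of promoters, was found 132 bases before the start of *Acsm5*, and the TATA box TATAAA, in 13.6% of promoters, was found in none of the members. The letters were searched on both strands, and a match was taken only as a description of the sequence. The counts are for whole genes and do not tell the 2 start sites of *Acsl1* apart.

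The labels were checked by the disrupted gene. *Fmo5* had 39808, 37405 and 30240 normalized counts in WT mice and 1071, 1102 and 1194 in Fmo5-/- mice, a log2 fold change of -5.00 (SE 0.137). The libraries had between 44886286 and 52338675 counts on genes, and a count of 0 allows up to 3 counts, or 0.0573 to 0.0668 counts per 1e6 counts (CPM), which covers counting error only. All 8 hepatocyte markers were expressed, their summed level was 110437 to 141154 CPM in WT and 112898 to 138935 in Fmo5-/- mice, and by edgeR 0 of 8 were called (0 at an unadjusted p under 0.05, and 0 by DESeq2). The 6 Kupffer cell and macrophage markers were together at 135 to 156 CPM in WT mice and 196 to 373 in Fmo5-/- mice. All 6 had higher means in Fmo5-/- mice, and 1 of them, *Clec4f*, passed edgeR's test at an adjusted p of 0.0275. At an unadjusted p under 0.05 all 6 were higher, DESeq2 called 5, and for 5 the genotypes did not overlap. The 6 lymphocyte markers summed to 3.13 to 5.45 CPM in WT and 5.41 to 14.9 in Fmo5-/- mice, the 4 neutrophil markers to 0.733 to 2.21 and 2.27 to 4.70, and the 5 adipocyte markers to 22.6 to 31.1 and 14.0 to 18.1, and no gene of these 3 lists passed edgeR's adjusted test. At an unadjusted p under 0.05 by edgeR, 3 lymphocyte and 2 neutrophil markers were higher in Fmo5-/- mice. Of the 2 adipocyte markers tested, 1 was lower and 1 was higher at that threshold. DESeq2 called 1 gene in each list, higher for lymphocytes and neutrophils and lower for adipocytes. The adipocyte-defining *Adipoq*, *Plin1* and *Lep* were too low to be tested, as were the neutrophil markers *Ly6g* and *Mpo*. The part of these cells in the differences between genotypes was not tested. In whole liver, fewer cells of a type and less RNA per cell cannot be told apart.

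*Acsl1* encodes the principal long-chain synthetase of liver, found on the endoplasmic reticulum, on mitochondria and on peroxisomes. Its normalized counts were 55834, 64196 and 45386 in WT mice and 41709, 35920 and 39315 in Fmo5-/- mice. The highest Fmo5-/- mouse was thus below the lowest WT mouse, WT mouse 3, which was closer to the Fmo5-/- mice than to WT mouse 2. The log2 fold change was -0.50 (SE 0.133, 95% confidence interval -0.80 to -0.20), with an adjusted p of 0.0818 by edgeR and 0.00656 by DESeq2.

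*Acsm3* encodes a mitochondrial enzyme for medium-chain fatty acids. It had 4253, 4231 and 2916 normalized counts in WT mice and 2634, 2252 and 2844 in Fmo5-/- mice. WT mice 1 and 2 were nearly equal and well above all others, whereas WT mouse 3 was only slightly above Fmo5-/- mouse 3. The log2 fold change was -0.56 (SE 0.155, interval -0.92 to -0.21), with an adjusted p of 0.0939 by edgeR and 0.0104 by DESeq2. Reads that lie in more than 1 gene were not counted, and 39.7% of the exon bases of *Acsm3* also lie in exons of *Eri2* on the other strand, so its count leaves out part of its transcripts. *Eri2* had 266 to 315 raw counts per library.

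*Acss3* encodes a mitochondrial short-chain synthetase known to activate propionate. Its normalized counts were 1208, 959 and 557 in WT mice and 437, 393 and 395 in Fmo5-/- mice. The Fmo5-/- mice lay close together, with a coefficient of variation (CV, SD over mean) of 6.11%, and the WT mice were spread widely, with a CV of 36.2%. The log2 fold change of -1.15 (SE 0.261, interval -1.77 to -0.54) was the largest of the 10, and the adjusted p was 0.0756 by edgeR and 4.08e-05 by DESeq2. Exons of *Ppfia2*, on the other strand, cover 33.9% of the exon bases of *Acss3*, and reads from these bases were not counted for it either. *Ppfia2* itself had 8 to 17 raw counts per library.

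The number of members below all WT mice, 3 of 10, stands beside 13.5% of all tested genes with no overlap and lower values in Fmo5-/- mice, and the same 3 did not overlap with the size factors of the deposited table. A further 13.9% of the tested genes had no overlap and higher values, as had 1 member, *Acsm1*. The call of the 3 members changed with the test and with 1 WT library. Without WT mouse 3, edgeR placed *Acss3* (log2 fold change -1.40, adjusted p = 0.00402) and *Acsm3* (-0.71, adjusted p = 0.0370) under 0.05 and *Acsl1* just above it (-0.62, adjusted p = 0.0544), when 0.562% of the tested genes were called lower. Without any of the other 5 mice, edgeR called none of the 3, and over all 6 omissions the log2 fold change stayed between -0.62 and -0.37 for *Acsl1*, between -0.71 and -0.47 for *Acsm3* and between -1.40 and -0.89 for *Acss3*. Without a filter on low counts, edgeR called all 3, with adjusted p of 5.53e-05 for *Acsl1*, 1.39e-06 for *Acsm3* and 5.61e-06 for *Acss3*, when 2.62% of 34200 genes were called lower. The median prior degrees of freedom, which set how far the variance of a gene is drawn to that of all genes, were 5.11 with the filter and infinite without it.

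**Figure D2:**
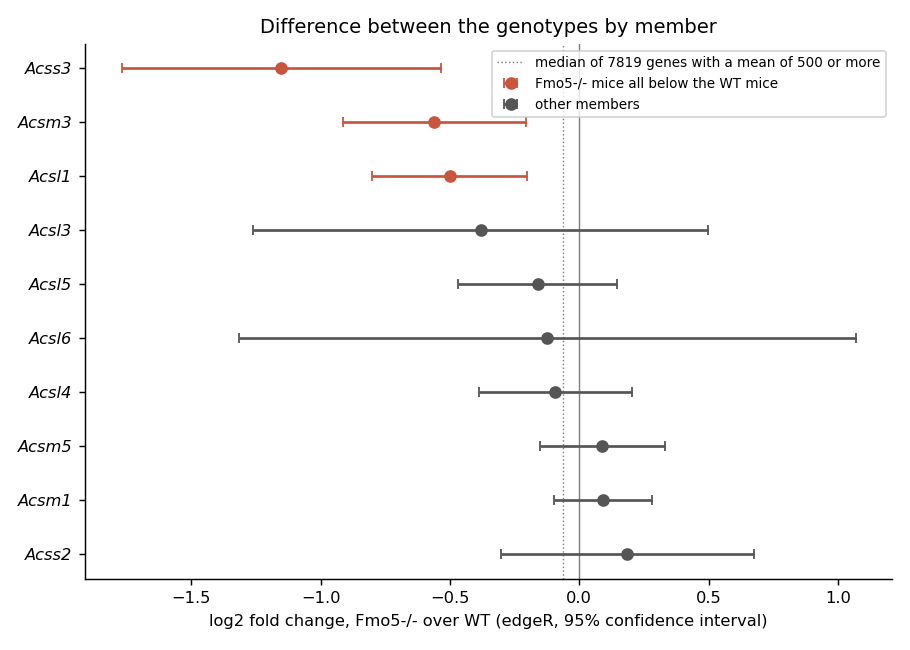
Log2 fold change, Fmo5-/- over WT, of the 10 members by edgeR with 95% confidence intervals (n = 3 per genotype). The intervals of *Acsl1*, *Acsm3* and *Acss3* lie below 0 before adjustment for the number of genes, and those of the other 7 include it.

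**Figure D3:**
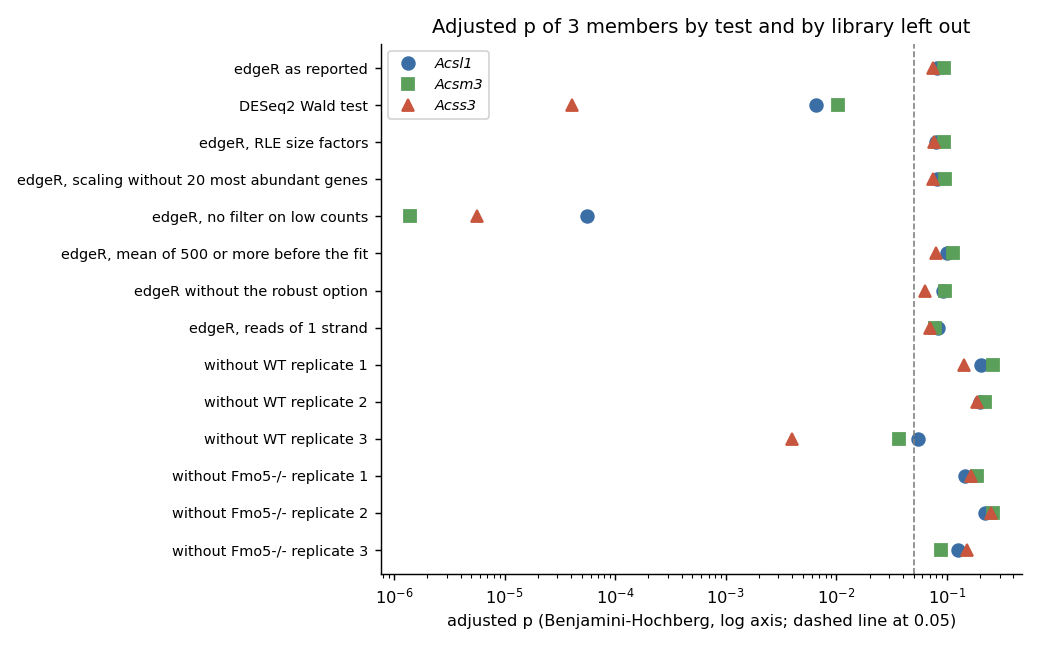
Adjusted p (log axis) of *Acsl1*, *Acsm3* and *Acss3* in edgeR as reported and in each alternative, with the threshold of 0.05 dashed. All 3 lie under 0.05 with DESeq2 and with edgeR without a filter on low counts, and *Acsm3* and *Acss3* also without WT mouse 3.

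The other long-chain members were not lower than all WT mice. *Acsl5*, an enzyme of the mitochondrial outer membrane and endoplasmic reticulum, had 25345, 19363 and 26307 normalized counts in WT mice and 23446, 18656 and 21407 in Fmo5-/- mice, with overlap between the genotypes (log2 fold change -0.16, interval -0.47 to 0.15, edgeR adjusted p = 0.536). *Acsl4*, which prefers arachidonic acid and is also expressed by macrophages, had 2364, 3318 and 3240 against 3028, 2696 and 2641, and all 3 Fmo5-/- mice fell between the lowest and the highest WT mouse (-0.09, interval -0.39 to 0.20, edgeR adjusted p = 0.727). *Acsl3*, found on the endoplasmic reticulum and lipid droplets, varied widely in both genotypes. It had 2214, 1492 and 3062 normalized counts in WT mice and 2390, 1223 and 1585 in Fmo5-/- mice, with CVs of 34.8% and 34.5%. Its interval, from a log2 fold change of -1.26 to 0.50, includes differences as large as that of *Acss3* (edgeR adjusted p = 0.589). *Acsl6*, known from brain, was close to absent with 3 to 14 raw counts per library, and its log2 fold change of -0.12 has an interval of -1.32 to 1.07.

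*Acsm1*, a mitochondrial enzyme for butyrate and other medium-chain acids, was the most even member. Its normalized counts were 19467, 21225 and 20678 in WT mice and 21252, 21670 and 22454 in Fmo5-/- mice, with CVs of 4.40% and 2.80%, where the median CV of genes with a mean of 500 or more was 7.42% in WT and 7.34% in Fmo5-/- mice. The Fmo5-/- mice were all above the WT mice on this scaling, but with the size factors of the deposited table the lowest Fmo5-/- mouse, at 20975, was below the highest WT mouse, at 21294. The log2 fold change of 0.09 (interval -0.10 to 0.28) had an edgeR adjusted p of 0.571. *Acsm5* had 9391, 9282 and 8036 normalized counts in WT and 8561, 9285 and 10573 in Fmo5-/- mice, which overlap (0.09, interval -0.15 to 0.33, edgeR adjusted p = 0.673). The lower bounds of both intervals, -0.10 and -0.15, are above the log2 fold change of -0.56 of *Acsm3*, the third member in the cluster.

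*Acss2* encodes the enzyme of cytosol and nucleus that makes acetyl-CoA from acetate, and it is a known target of the sterol regulatory element-binding proteins. Its normalized counts were 16698, 13647 and 24318 in WT mice and 23880, 17944 and 20372 in Fmo5-/- mice. The highest of all 6 mice was a WT mouse, and the lowest 2 were WT mice as well (log2 fold change 0.19, interval -0.30 to 0.67, edgeR adjusted p = 0.658). Without WT mouse 3 the log2 fold change was 0.45, with an edgeR adjusted p of 0.142. Of the 2 short-chain members, *Acss2* was thus higher by a difference that the spread between mice covers, and *Acss3* was lower.

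The members did not vary among the mice of a genotype in 1 common way. WT mouse 3 was the lowest WT mouse for *Acsl1*, *Acsm3*, *Acsm5* and *Acss3* and the highest for *Acsl3*, *Acsl5* and *Acss2*. For those last 3 genes WT mouse 2 was the lowest WT mouse, and in the Fmo5-/- mice mouse 1 was the highest and mouse 2 the lowest. Fmo5-/- mouse 2 was the lowest of its genotype for 7 members, all but *Acsl4*, *Acsm1* and *Acsm5*, and the highest for none. Over the 7819 genes with a mean of 500 or more, the median distance of a mouse from the mean of the other 2 of its genotype was 0.0826 to 0.121 on the log2 scale and 0.117 for WT mouse 3, which thus did not stand apart over all genes.

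Levels can be compared between genes only per length, so the normalized counts were divided by the length of the principal transcript. *Acsl1* was the most abundant member in WT mice, with 14149 ± 2418 normalized counts per kb in WT and 10003 ± 746 in Fmo5-/- mice (SD, n = 3). *Acsm1* had 9821 ± 432 and 10462 ± 293, *Acss2* 6217 ± 1875 and 7073 ± 1018, *Acsl5* 5579 ± 887 and 4989 ± 567, and *Acsm5* 2987 ± 253 and 3178 ± 342. In WT mice *Acsl1* was above *Acsm1* in each mouse, and in Fmo5-/- mice the 2 genes were close, with *Acsm1* higher in 2 of 3 mice. Their order in Fmo5-/- mice depends on the length used, since per kb of coding sequence *Acsl1* had 17129 to 19890 and *Acsm1* 12363 to 13062 normalized counts there. The order of *Acss2* and *Acsl5* is not set, since their ranges overlapped in WT mice and, per kb of coding sequence, the means in Fmo5-/- mice were 9679 and 10332 with overlapping ranges. *Acsm3*, at 1379 ± 278 and 935 ± 109, lay well below these, and per kb of transcript it was above *Acsl4* (563 ± 100 and 528 ± 39.6) and *Acsl3* (571 ± 199 and 439 ± 151), whose ranges overlapped. Per kb of coding sequence, *Acsm3* (1207 to 1524) and *Acsl4* (1238 to 1419) overlapped in Fmo5-/- mice. *Acss3* had 193 ± 69.9 and 86.9 ± 5.31 normalized counts per kb and *Acsl6* 3.99 ± 2.48 and 3.66 ± 1.22. The 2 members with the largest fitted fold changes, *Acss3* and *Acsm3*, are therefore minor members by level, whereas *Acsl1* was the first in WT mice and next to *Acsm1* in Fmo5-/- mice. The levels of *Acss3* and *Acsm3* leave out reads from the 33.9% and 39.7% of their exon bases shared with *Ppfia2* and *Eri2*. They may thus be too low, by an amount that was not measured. With the reads of 1 strand alone, the log2 fold change was -0.48 for *Acsm3* and -1.05 for *Acss3*, against -0.56 and -1.15 with the joined counts.

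The summed level of the 10 members was 41463 ± 247 normalized counts per kb in WT mice and 37698 ± 2437 in Fmo5-/- mice. Each Fmo5-/- mouse was below each WT mouse. The long-chain genes made up 51.6%, 52.8% and 46.5% of that sum in WT mice and 43.9%, 41.3% and 41.7% in Fmo5-/- mice, a difference of -8.02 percentage points. Within the medium-chain genes the share of *Acsm3* was 11.0%, 10.4% and 7.74% in WT mice and 6.82%, 5.70% and 6.72% in Fmo5-/- mice. Within the short-chain pair the share of *Acss3* was 4.32%, 4.20% and 1.41% in WT mice and 1.13%, 1.35% and 1.19% in Fmo5-/- mice, so that WT mouse 3 was next to the Fmo5-/- mice and apart from the other two WT mice. For these shares and the sum the 2-sided exact permutation test gave p = 0.1, the smallest it can give with 3 mice against 3, and 0.28 adjusted over the 14 quantities compared. *Acsl1* made up 67.5% ± 7.09 of the long-chain genes in WT and 62.7% ± 1.20 in Fmo5-/- mice (SD, n = 3), and the mice overlapped (exact permutation p = 0.4, adjusted 0.509).

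**Figure D4:**
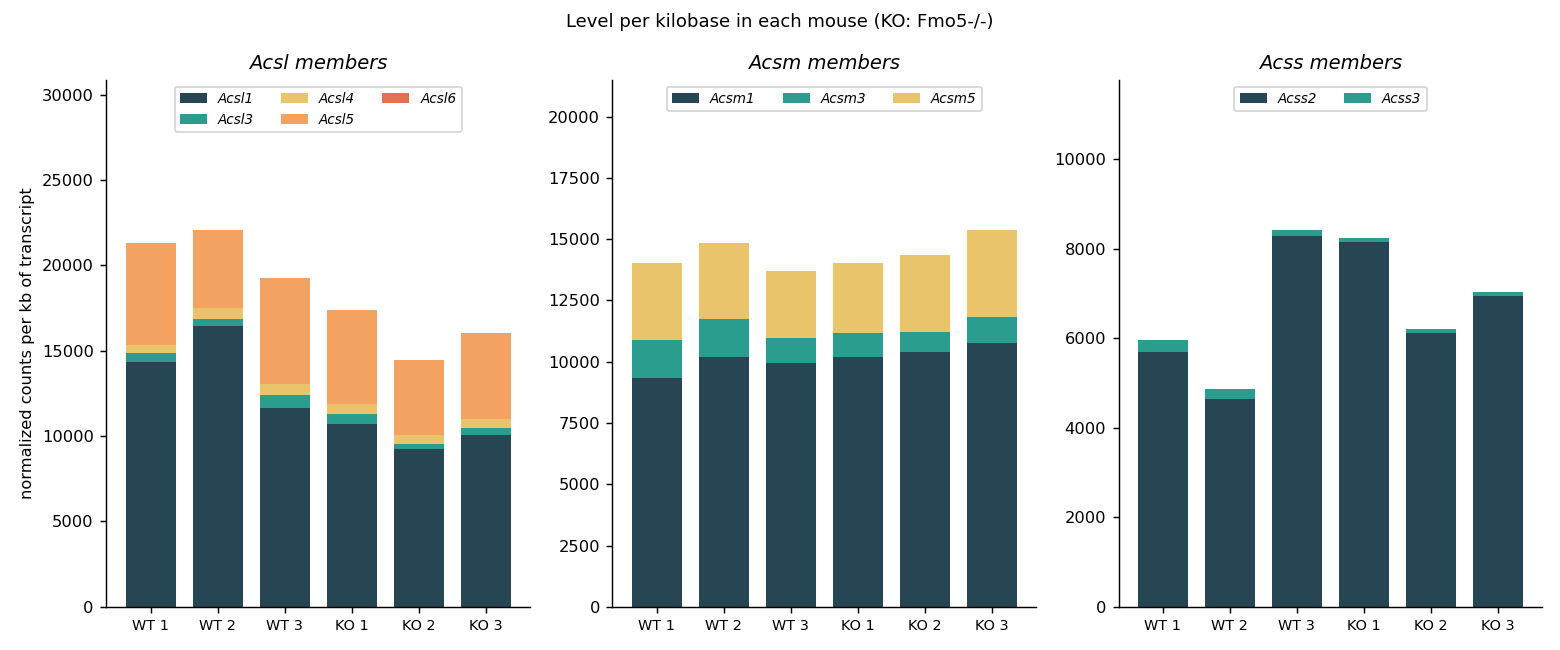
Normalized counts per kb of transcript (linear axis from 0) of the members of each family, stacked for each mouse, with KO for Fmo5-/-. *Acsl1* is the largest long-chain part and *Acsm1* the largest medium-chain part in all 6 mice, the *Acsl6* part is too small to see, and the long-chain stack is lower in each Fmo5-/- mouse than in each WT mouse.

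The median log2 fold change of the 10 members was -0.14, against 0.01 for all tested genes and -0.06 for the 7819 genes with a mean of 500 or more, of which 64.0% were lower in Fmo5-/- mice. Of the members, 9 were in that class, all but *Acsl6*, and 7 of the 10 had a negative log2 fold change. Of 14 other acyl-CoA synthetase genes, 11 were tested and 0 passed edgeR's adjusted test, with 1 at an unadjusted p under 0.05 and 1 called by DESeq2. That gene was *Slc27a2*, the very long-chain synthetase of peroxisomes and endoplasmic reticulum, with 52609, 53351 and 47543 normalized counts in WT mice and 40578, 39111 and 39407 in Fmo5-/- mice (log2 fold change -0.37, SE 0.0890, adjusted p 0.0710 by edgeR and 0.00231 by DESeq2). All 3 Fmo5-/- mice were below the WT mice. *Slc27a5*, which activates bile acids, had the highest level of that list and overlapping ranges of 45186 to 55559 in WT and 43897 to 52902 in Fmo5-/- mice. *Slc27a4*, next by p, overlapped too, with a log2 fold change of -0.25 and an edgeR adjusted p of 0.247.

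The genes that take fatty acyl-CoA onwards were described by the same counts. In the list of the carnitine shuttle and beta-oxidation, all 23 genes had negative log2 fold changes (median -0.36). At an unadjusted p under 0.05 edgeR had 19 lower, DESeq2 called 13, and edgeR's adjusted test called 3. For 19 of the 23, the Fmo5-/- mice were all below the WT mice, against the 13.5% of all tested genes given above. The 3 genes that edgeR called were *Cpt2*, the inner carnitine palmitoyltransferase (-0.49, adjusted p = 0.0468 by edgeR), *Slc25a20*, the carnitine-acylcarnitine carrier (-0.44, adjusted p = 0.0468), and *Etfdh*, which passes electrons from acyl-CoA dehydrogenases to ubiquinone (-0.51, adjusted p = 0.0493). *Acaa2*, a mitochondrial thiolase and an abundant gene of the list, had a log2 fold change of -0.19 (adjusted p = 0.223 by edgeR). Of 12 tested thioesterases, which undo the reaction of the synthetases, edgeR called 1, *Them4* (-0.63, adjusted p = 0.0275), and the most abundant, *Acot12* and *Acot4*, overlapped between genotypes. Of 15 genes of glycerolipid and sterol esterification, edgeR called *Lpin2*, a phosphatidate phosphatase (-0.63, adjusted p = 0.0243), and *Mogat1*, a monoacylglycerol acyltransferase at a low level of 64 to 115 normalized counts in WT and 19 to 29 in Fmo5-/- mice (-1.87, adjusted p = 0.0324). *Dgat2*, the most abundant, overlapped (-0.20). In the other direction 2 genes of this list were higher at an unadjusted p under 0.05 without overlap, *Soat1*, a cholesterol acyltransferase (0.68, adjusted p 0.0779 by edgeR and 0.0120 by DESeq2), and *Lpin3* (0.35), named after their values were seen. Of 11 tested genes that use acetyl-CoA or propionyl-CoA, the mitochondrial thiolase *Acat1* was called by edgeR (-0.46, adjusted p = 0.0494), whereas the lipogenic *Fasn* and *Acly* overlapped. At an unadjusted p under 0.05, 4 thioesterases, 4 esterification genes and 3 genes of acetyl-CoA and propionyl-CoA use were lower, of which DESeq2 called 1, 4 and 1.

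No gene passed edgeR's adjusted test in the 4 remaining lists. Of 12 genes of fatty acid uptake and binding, 6 were lower at an unadjusted p under 0.05 and 4 were called by DESeq2, and *Fabp2* (-0.60, edgeR adjusted p = 0.0564) and *Acbd5* (-0.40, 0.0965) had the smallest p. The abundant *Fabp1* and *Scp2* were lower in each Fmo5-/- mouse than in each WT mouse, by a log2 fold change of -0.24 and -0.32. Neither was called, with adjusted p of 0.261 and 0.168 by edgeR and 0.174 and 0.0746 by DESeq2. Of these 2 genes, only *Scp2* had an unadjusted p under 0.05 by edgeR. Of the 4 genes of glycine conjugation, 2 reached an unadjusted p under 0.05 and were called by DESeq2, and these were *Baat* (-0.48, edgeR adjusted p = 0.0552) and *Glyat* (-0.42, 0.0765). Of 10 tested genes of coenzyme A synthesis and breakdown, 3 were lower at an unadjusted p under 0.05 and 2 were called by DESeq2, the synthesis genes *Pank3* (-0.46, edgeR adjusted p = 0.0712) and *Coasy* (-0.36, 0.0779). The abundant *Nudt7* of this list, which cleaves coenzyme A, overlapped. *Pank1*, next by level, was the other gene lower at an unadjusted p under 0.05 (-0.31, edgeR adjusted p = 0.191). Its values overlapped between the genotypes too. Of 16 regulators, 2 were lower at an unadjusted p under 0.05, *Nfe2l2* (-0.29, edgeR adjusted p = 0.0938) and *Pparg* (-0.46, 0.135), and DESeq2 called 1, *Nfe2l2*. *Mlxipl* and *Hnf4a*, the regulators of highest level, overlapped between the genotypes.

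**Figure D5:**
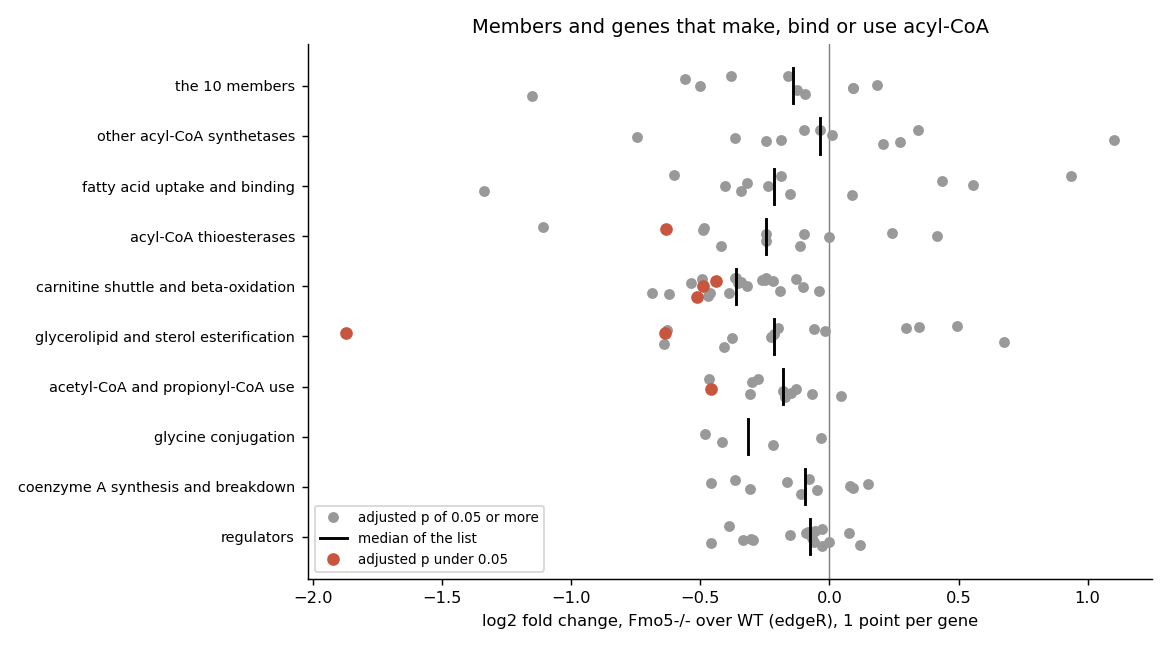
Log2 fold change, Fmo5-/- over WT, by edgeR for the 10 members and for the tested genes of each of 9 lists, 1 point per gene, with the median of each list as a bar. Genes with an adjusted p under 0.05 are in red, and all 23 genes of the carnitine shuttle and beta-oxidation lie left of 0.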

How the data were processed

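Liver RNA was sequenced as single reads of 75 bases from 3 WT and 3 Fmo5-/- mice, 1 library per mouse. The authors clipped adapters, used STAR for mapping to mm10 and for counting by gene, and deposited 1 table of raw counts for each mouse, with the strands joined and apart. Their deposited series table holds, as signal values, these counts over a size factor of DESeq2, and also their own fold changes and p-values, which were not used. The members other than *Acsl6* have similar counts on both strands. This was taken to mean that the library does not keep strand, so the joined counts were used. *Acsl6*, with 3 to 14 raw counts per library, had 30.8% to 50.0% on the first strand. Rows that name no gene (unmapped, multimapping, no feature or ambiguous), 30.8% to 33.8% of the reads, were left out. Genes were joined by versioned Ensembl identifier.

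Genotypes were compared with edgeR 4.0.16 in R 4.3.3 (filterByExpr with a minimum count of 10, TMM scaling, robust quasi-likelihood fit and test, two-sided, Benjamini-Hochberg adjustment over 16734 genes, threshold 0.05). Standard errors are log2 fold changes divided by the root of F. Normalized counts are scaled to the mean library size. The labels give each mouse an identifier but no replicate number and no pairing, so the numbers used here follow the order of accession. Alternatives were DESeq2 1.42.0, other scalings, filters and strands, and leaving out each mouse. The principal transcript was chosen for lengths after the annotated lengths had been seen, and coding length was the alternative. The genes named are the members, *Fmo5*, list genes with an adjusted p under 0.05 or else the 2 of smallest p, and the 2 of highest mean CPM per list. A gene that this rule names is not reported here. Of the marker lists, named genes were kept to those beside which a result stands. Members and lists were chosen with earlier results of these data known. Scripts were tested on simulated counts. Of the marker lists not described elsewhere, edgeR called 0 genes in each of stellate cell, endothelial, cholangiocyte, erythroid, and pancreas, gut or kidney markers (0, 1, 0, 1 and 1 genes at an unadjusted p under 0.05, and 0 in each by DESeq2).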

Additional observations from a re-analysis of the deposited data

How the results depend on the processing

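No paired analysis was possible because the labels give the mice no numbers that pair them across genotypes. With 3 mice per genotype, the count of genes called depended on the test more than the fold changes of the members did. Of the 129 member fold changes recomputed, 126 kept their direction, and the 3 others were of *Acsl6*. Its log2 fold change ranged from -0.54 to 0.28 when 1 mouse was left out. The same omissions gave -0.69 to -0.09 for *Acsl3*, -0.23 to -0.0055 for *Acsl4* and -0.28 to -0.074 for *Acsl5*. They gave 0.062 to 0.12 for *Acsm1*, 0.00072 to 0.16 for *Acsm5* and 0.018 to 0.45 for *Acss2*. The 91 recomputed differences in shares moved by less than the larger of the SDs of the genotypes, but some moved by more than the smaller SD or by over 1.5 times. For *Acsl1* among the long-chain genes, the difference of -4.75 percentage points was -1.14 without WT mouse 2 and -8.23 without WT mouse 3. Coding length moved that of *Acss3* from -2.09 to -3.38. The differences of *Acsl3* (-0.62 to 0.54) and *Acsl6* (-0.0031 to 0.0077), both near 0, turned sign when single mice were left out. The long-chain share of all 10 stayed between -9.91 and -6.77, and that of *Acsm3* between -4.26 and -2.63.

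By DESeq2 3 members, 30 genes of the 9 lists and 1395 of all genes were called, against 0, 7 and 229 by edgeR. Without a filter on low counts edgeR called 3, 41 and 1989. When genes with a mean under 500 were removed ahead of the fit it called 0, 0 and 53, and the median log2 fold change of genes with a mean of 500 or more moved by 0.0644. Without the robust option 3 list genes were called, and with the reads of 1 strand 4. Leaving out 1 mouse gave 0 to 2 members, 0 to 8 list genes and 31 to 763 of all genes. The members called then were *Acsm3* and *Acss3*, without WT mouse 3. List genes numbered 0 without Fmo5-/- mouse 1 and 1 without WT mouse 1, WT mouse 2 or Fmo5-/- mouse 2, and the calls of single list genes are therefore not firm. The cause of these differences in counts was not tested.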
